A study of Zea mays with 42 samples.

Results

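Bidirectional gene pairs (BDGPs) are neighbouring genes that lie head to head on opposite strands, with a short intergenic region between their start sites. Such a region can act as a bidirectional promoter that drives transcription both ways, and genes that share one are often expressed together, although each side can also be used on its own. The 3 BDGPs described here went the other way: over maize tissues, the signals of both genes of a pair were negatively correlated. They are GRMZM2G143499 with GRMZM2G143480, GRMZM2G010596 with GRMZM2G011079, and GRMZM2G022269 with GRMZM2G022248. These are 6 of the 148 genes and 3 of the 74 pairs for which the microarray holds a probe set for both genes. GRMZM2G011079 gave weak signals in all tissues, and in the third pair leaf alone gave 68.5% of the correlation. The pairs were chosen by their Pearson correlation (r) over the tissue means of these same arrays, which was among the lowest. Their levels, fold changes between tissues and r over tissues are therefore given as a description. Where a fit over all probe sets called some of these genes, the count is printed beside the share of all probe sets called and is no evidence about the genes.

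RNA of untreated plants of the maize inbred B73 was read on 42 Affymetrix arrays, of which 3 belong to each of 14 tissues as biological replicates. Embryo, which becomes the seedling, and endosperm, which fills with starch and storage protein, are the seed tissues. Both were sampled 10, 15, 20 and 25 days after pollination (DAP). The non-seed tissues were root, stem, stem tip and leaf of plants at the big trumpet period, and ear and silk taken before pollination. Whether a replicate held tissue of 1 plant or of several is not given in the sources used here. Each value is a MAS5 signal, a linear intensity summarised over the probes of 1 probe set. Signals of different probe sets cannot be set against each other as levels of RNA, because each probe set hybridises with its own strength. Detection in a tissue required all 3 of its arrays to reach a signal of 100. In whole tissues, fewer cells of a type and less RNA per cell cannot be told apart.

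Arrays of endosperm, embryo and leaf had the highest summed signals of the markers listed for their tissue. Single probe sets could differ from their list, as 1 of glb1 in the embryo list averaged 6863 in root and 54.3 to 149 in embryo stages. The summed signal of 18 probe sets for 9 endosperm genes, among them zeins and starch enzymes, was 141026 to 219186 in endosperm and 1554 to 3933 in non-seed tissues. The same sum was 31329 to 72158 on the 3 arrays of embryo 10 DAP, 8339, 54467 and 8543 on those of embryo 15 DAP, and 6154 to 9270 in the later embryos, so the youngest embryos carried more endosperm marker signal than the older ones. Of the 14 endosperm and 8 embryo genes listed, 9 and 6 were found on the array. The embryo list reached 22002 to 24683 in endosperm 25 DAP and 2557 to 9612 in the younger endosperms, against 28007 to 88785 in embryos. Leaf markers (12 probe sets for 5 genes) summed to 141861 to 149148 in leaf and to at most 50517 elsewhere. Root markers (7 probe sets for 4 genes) summed to 3026, 9617 and 12119 on root replicates 1, 2 and 3. Their highest sum elsewhere was 3448, in silk, so root replicate 1 did not stand out by them. A trimmed mean of each array ran from 886 to 1070 in seed tissues and from 1130 to 1244 in non-seed tissues. The hybridization controls, spiked in at fixed amounts, averaged 11.52 ± 0.23 log2 in endosperm (SD, n = 12), 10.93 ± 0.17 in embryo (n = 12) and 11.14 ± 0.37 in non-seed tissues (n = 18). On average endosperm arrays thus read these controls higher than embryo arrays did, and values after centring on them are given with r and with the fold changes. Root replicate 1 stood apart from its group, with a mean correlation of 0.930 to the other root arrays.

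The positions of the genes follow the study's list, whose genome build is not named in the sources used here. GRMZM2G143499 lies on the minus strand at chr10:145891859-145895272 and GRMZM2G143480 on the plus strand at chr10:145895417-145903773. Their start sites are 145 bp apart, and the 2 and 4 annotated transcripts form 8 divergent transcript pairs with gaps of 145 to 187 bp. GRMZM2G010596 (minus strand, chr8:27213554-27216282) and GRMZM2G011079 (plus strand, chr8:27216529-27222145) are 247 bp apart, with 6 transcript pairs at 247 to 473 bp. GRMZM2G022269 (minus strand, chr1:298408224-298413579) and GRMZM2G022248 (plus strand, chr1:298414105-298418660) are 526 bp apart, with 4 transcript pairs at 526 to 600 bp. The 3 gaps fall at ranks 14, 27 and 45, counted from the shortest, of the 66 pairs on the array with a listed position, which range from 62 to 991 bp around a median of 358 bp. RefSeq places no other gene between the genes of any of these pairs. Whether its own models of GRMZM2G143499 and GRMZM2G143480 overlap was not settled here. The tables used here give no protein name for any of the 6 genes, which are LOC100283840, LOC100283301, LOC100283732, LOC100383823, LOC100273405 and LOC100284171 in RefSeq, so no role is attached to them. Their probe sets were tied to the genes by the study's worksheet alone.

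For 1 of these pairs the study designed primers to clone the region between the genes, from transcript T01 of GRMZM2G010596 to transcript T02 of GRMZM2G011079. They are shown because they mark the only intergenic region of the 3 pairs that has primers among the study's sequences. The study used this primer series for pairs chosen by RNA-seq, a measure other than these arrays, for high relative expression in embryos. It re-cloned these promoters from the translation start of each gene and reports reporter activity in embryos, in 1 or both directions, for all of them. Which of these held for this pair was not looked up here. On the arrays described here GRMZM2G011079 read 30.9 to 58.0 in embryo and reached 100 on 0 of 12 arrays. The RNA-seq values of this pair were not looked up, and how they compare with this weak array signal was not tested. Capitals mark TCTAGA in the forward and CCCGGG in the reverse primer, 5′ to 3′, read here as restriction sites added for cloning. The study's methods name XbaI and NcoI sites for its primers, and CCCGGG is not the site of NcoI.
7-1f: atTCTAGAcgtcggcgcgtcgcagctcg
7-1r: aCCCGGGtgtctctcgtcgcgcgtac
The maize part after the site is 20 bases with 80% G or C in the forward primer and 19 bases with 63.2% in the reverse primer.

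Both genes of the first pair were detected in all 14 tissues, and on the deposited scale the endosperm set them apart in opposite directions. GRMZM2G143499 read 3010, 3023 and 2883 on the arrays of endosperm 10 DAP, and 4091, 4148 and 4130 at 15 DAP. It read 3979, 3755 and 4188 at 20 DAP, and 4090, 4100 and 4116 at 25 DAP. All 12 endosperm arrays lay above all 30 other arrays, whose signals ran from 1335 to 2601 with a median of 1935. GRMZM2G143480 read 1059, 1113 and 1140 at endosperm 10 DAP, 922, 860 and 917 at 15 DAP, 668, 643 and 619 at 20 DAP, and 800, 851 and 869 at 25 DAP. Here all 12 endosperm arrays lay below all 30 others, which ran from 1688 to 3540 with a median of 2492. Endosperm arrays read the hybridization controls at 11.09 to 11.78 log2, against 10.63 to 11.32 in embryo and 10.67 to 11.85 in non-seed tissues. Among the latter, stem and stem tip were at 10.67 to 10.86. The order of arrays was not redone for either gene after centring on these controls.

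Within the embryo the genes of this pair differed in their course. GRMZM2G143499 read 2238, 1930 and 2158 at 10 DAP, 1910, 1862 and 1882 at 15 DAP, 1551, 1674 and 1659 at 20 DAP, and 1464, 1513 and 1478 at 25 DAP. Each stage lay below the one before it with no overlap between arrays, and embryo 25 DAP had the lowest mean of all 14 tissues. GRMZM2G143480 stayed between 2374 and 2709 on the 12 embryo arrays. The embryo 10 DAP array with the highest endosperm marker sum, replicate 1 at 72158, also had the highest GRMZM2G143499 signal of its stage, but at 15 DAP replicate 2, with a marker sum of 54467 against 8339 and 8543, had the lowest. What part endosperm RNA had in the fall over embryo stages was not tested.

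Among the non-seed tissues no such opposition appeared. GRMZM2G143480 had its highest mean in ear, 3000 ± 542 (SD, n = 3), with arrays at 3540, 3003 and 2456. GRMZM2G143499 read 2179, 1964 and 1473 on the same arrays, so that both genes were lowest on ear replicate 3, the ear array whose hybridization controls were highest (11.85 log2 against 10.97 and 10.94). Of the 13 steps between neighbouring tissues in the order of means, 10 overlapped in their arrays for GRMZM2G143499 and 9 for GRMZM2G143480. The steps of GRMZM2G143499 without overlap lay between endosperm 20 and 10 DAP, between endosperm 10 DAP and stem tip, and between root and embryo 15 DAP. The widest step of GRMZM2G143480 separated root, at 1810 ± 129, from endosperm 10 DAP, at 1104 ± 41.6 (SD, n = 3 each).

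**Figure D1:**
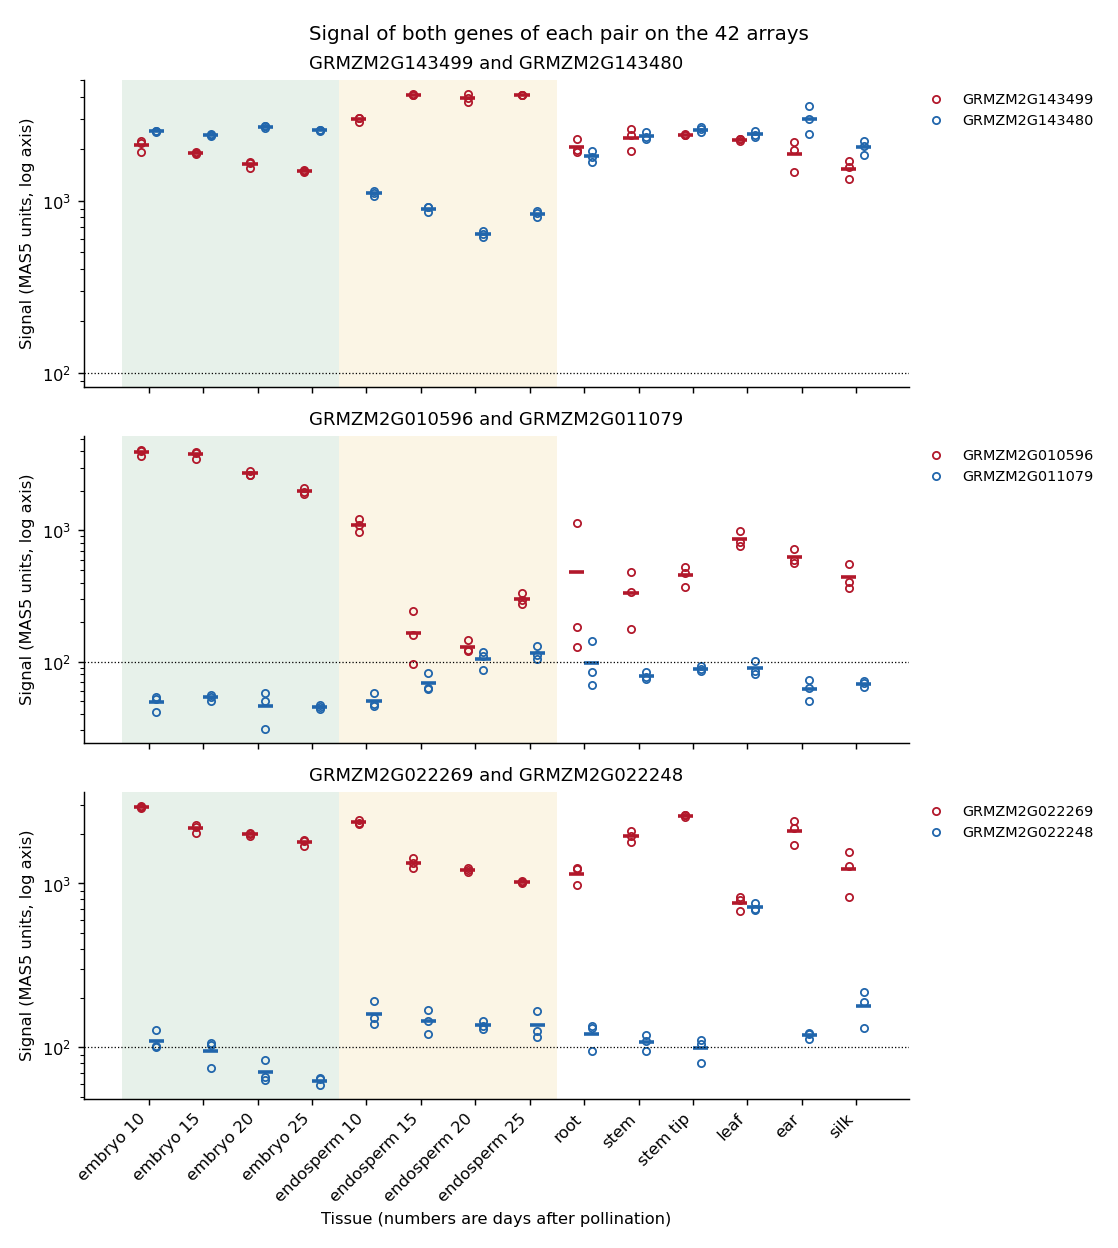
MAS5 signal (log axis) of the 2 genes of each pair in 14 tissues. Circles are single arrays, bars are means of 3, the dotted line is a signal of 100, and green and yellow bands mark embryo and endosperm; the heights of 2 genes cannot be compared. The yellow band holds the highest GRMZM2G143499 and the lowest GRMZM2G143480 signals, and leaf holds the lowest GRMZM2G022269 and the highest GRMZM2G022248 signals.

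In the second pair the embryo was the tissue of the high gene. GRMZM2G010596 read 4125, 4038 and 3700 in embryo 10 DAP, 3507, 3941 and 3924 at 15 DAP, 2661, 2840 and 2650 at 20 DAP, and 1909, 2115 and 1967 at 25 DAP. All 12 embryo arrays lay above the 30 others, which ran from 96.1 to 1212. In endosperm it read 971, 1106 and 1212 at 10 DAP, 161, 96.1 and 242 at 15 DAP, 121, 147 and 123 at 20 DAP, and 275, 331 and 293 at 25 DAP. The means of endosperm 10 and 20 DAP were 1096 ± 121 and 130 ± 14.5 (SD, n = 3 each), with no overlap, and from its highest tissue to its lowest the gene spanned 30.3-fold.

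Leaf came next for GRMZM2G010596 after embryo and endosperm 10 DAP, with arrays at 818, 993 and 762, which were all above the 3 ear arrays at 566, 596 and 719. Root spread most widely, with 1136 on replicate 1 against 130 and 184 on replicates 2 and 3. GRMZM2G011079 was also highest of the root arrays on replicate 1, at 143 against 84.1 and 66.6, and that array had the lowest summed signal of the root markers, 3026 against 9617 and 12119. The root means, 484 for GRMZM2G010596 and 97.95 for GRMZM2G011079, therefore lay above replicates 2 and 3 of either gene. Why replicate 1 differed was not tested.

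GRMZM2G011079 gave weak signals throughout, from 30.9 to 143. It reached 100 on 7 of 42 arrays and was detected in 1 tissue, endosperm 25 DAP, at 113, 104 and 132. The arrays of endosperm 10 DAP read 45.9, 47.4 and 57.8, those of 15 DAP 63.3, 81.6 and 61.8, and those of 20 DAP 86.7, 111 and 118. The 12 embryo arrays, from 30.9 to 58.0 with a median of 50.2, overlapped with endosperm 10 DAP and lay below all 9 arrays of endosperm 15 to 25 DAP. Of the 13 steps in its order of tissues 12 overlapped, and the pooled SD within tissues was 0.25 log2 beside a range of 1.37 log2 between tissue means. The opposition in this pair therefore rests on a gene that passed the detection rule in 1 tissue, with endosperm 20 DAP reaching 100 on 2 of its 3 arrays.

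The third pair was set by a tissue outside the seed. GRMZM2G022248 read 690, 697 and 765 in leaf, above the 39 other arrays, which ran from 59.2 to 217 with a median of 119. GRMZM2G022269 read 824, 795 and 675 on the same leaf arrays. All 3 lay below the 39 others, of which silk replicate 3 was the lowest at 832, and the leaf mean of 765 ± 79.0 was followed by 1022 ± 13.0 in endosperm 25 DAP (SD, n = 3 each).

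GRMZM2G022269 was detected in every tissue. It was highest in embryo 10 DAP, at 2910, 2906 and 2984, followed by stem tip at 2616, 2534 and 2633 and endosperm 10 DAP at 2293, 2337 and 2437, and these 3 tissues were free of overlap. From there it was lower at each later stage of both seed tissues, down to 1779 ± 72.3 in embryo and 1022 ± 13.0 in endosperm at 25 DAP (SD, n = 3 each). Outside the seed the silk arrays spread most, at 1272, 1566 and 832.

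GRMZM2G022248 was detected in 8 tissues, among them all 4 endosperm stages, where the 12 arrays read 116 to 191. In embryo it read 101, 103 and 127 at 10 DAP, 74.6, 103 and 107 at 15 DAP, 65.7, 63.7 and 83.9 at 20 DAP, and 59.2, 64.6 and 64.4 at 25 DAP. Both genes of this pair were thus lower in embryo 25 than in embryo 10 DAP, with no overlap in either. Apart from the step from leaf to silk, all other neighbouring tissues in the order of GRMZM2G022248 overlapped in their arrays.

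Over the 14 tissue means of log2 signal, r was −0.88 for GRMZM2G143499 and GRMZM2G143480 (Spearman rho −0.66), −0.79 for GRMZM2G010596 and GRMZM2G011079 (rho −0.81) and −0.65 for GRMZM2G022269 and GRMZM2G022248 (rho −0.51). These are ranks 1, 2 and 4 from the lowest of the 74 pairs, whose median r was 0.08, with 31 pairs below 0. GRMZM2G166145 with GRMZM2G166044, at −0.70 and rank 3, is not among the pairs described although its r was lower than that of the third, and GRMZM2G067581 with GRMZM2G067522 follows at −0.62. In each of the 14 points both genes were read on the same 3 arrays and share their scaling, and tissues of 1 organ at different ages are not independent.

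The tissues behind each r were found by leaving them out. Without the 4 endosperm stages r of the first pair was −0.02 over the 10 other tissues, and without the 4 embryo stages it was −0.86. Over the 8 seed tissues it was −0.96 and over the 6 non-seed tissues 0.24. On the deposited scale endosperm was therefore the tissue that carried the opposition of GRMZM2G143499 and GRMZM2G143480, and the non-seed tissues showed none. Leaving tissues out was not repeated after centring on the hybridization controls.

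For GRMZM2G010596 and GRMZM2G011079, r was −0.52 without embryo, −0.83 without endosperm, −0.82 over seed tissues and −0.19 over non-seed tissues. No single tissue moved it outside −0.85 to −0.75. For GRMZM2G022269 and GRMZM2G022248, r was −0.65 without embryo and −0.75 without endosperm, but −0.40 without leaf alone. Over the 6 non-seed tissues it was −0.82 and over the 8 seed tissues −0.29. Without leaf and the endosperm stages together it was −0.39, so that part of the opposition was left in the other 9 tissues.

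The same order appeared when r was written as a sum of 14 parts, each the product of the standardised means of both genes in a tissue. Endosperm gave 72.3%, embryo 19.4% and non-seed tissues 8.26% of r in the first pair, and endosperm 20 DAP alone 26.5%. In the second pair embryo gave 55.3%, endosperm 34.3% and non-seed tissues 10.4%. In the third pair leaf gave 68.5%, embryo 19.3%, the other 5 non-seed tissues 13.1% and endosperm −0.94%. The genes lay on opposite sides of their means in 13, 10 and 12 of the 14 tissues.

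**Figure D2:**
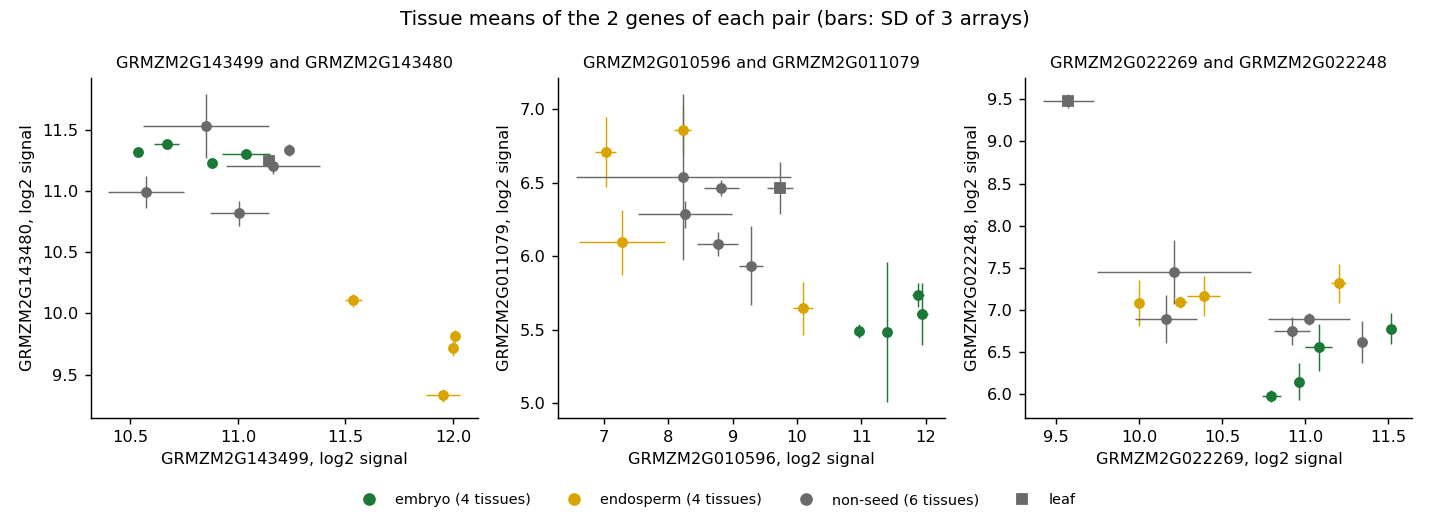
Tissue means of log2 signal, with the first gene of each pair on the x axis and the second on the y axis; bars are the SD of 3 arrays. The 4 endosperm means stand at the lower right in the first pair, the 4 embryo means at the lower right in the second, and leaf alone at the upper left in the third.

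**Figure D3:**
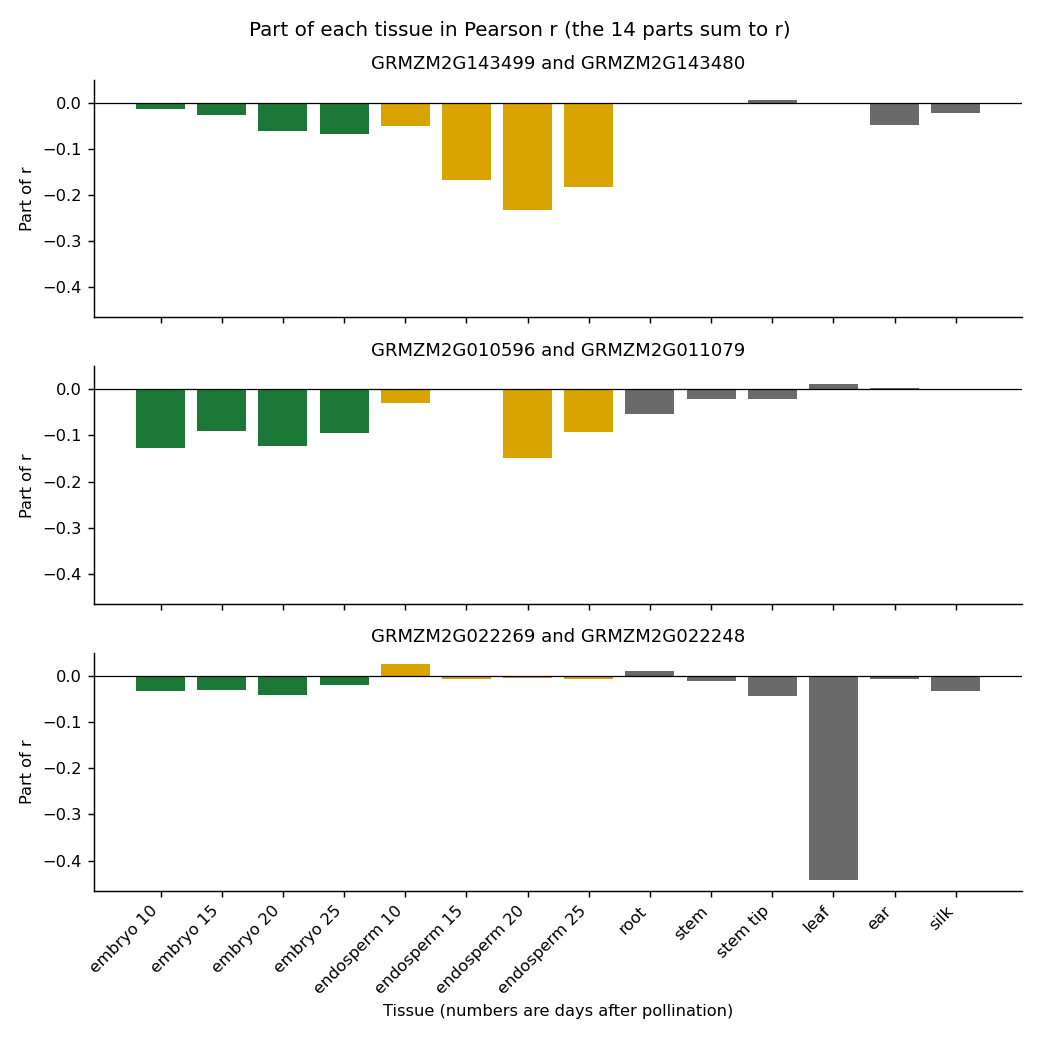
Part of each tissue in r, by pair; bars below 0 are tissues where the genes lie on opposite sides of their means, and the 14 parts sum to r (−0.88, −0.79 and −0.65). Embryo is green, endosperm yellow and non-seed tissues grey; leaf is the largest single part, in the third pair.

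A difference in scaling between arrays shifts both genes of a pair alike and so bears on r. After each array was centred on its hybridization controls, r was −0.34, −0.36 and −0.33 for the 3 pairs, at ranks 7, 6 and 8, while the median of the 74 pairs was 0.34 in place of 0.08. With quantile normalization the values were −0.82, −0.68 and −0.54, at ranks 1, 2 and 8. With signals under 100 taken as 100, the second pair gave −0.49, since this levels most of GRMZM2G011079. The sign stayed negative in the 3 pairs under these settings, but their size and rank depended on the scaling.

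The log2 ratio of both genes on the same array is free of such a shift. It was set against its own median over tissues, so that it shows unequal change and not which gene is higher. For GRMZM2G143499 over GRMZM2G143480 the tissue means were 1.53, 2.30, 2.73 and 2.39 in endosperm at 10, 15, 20 and 25 DAP, with SDs of 0.06 to 0.12. The highest value on any other array was 0.54, so the 12 endosperm arrays did not overlap with the rest. In embryo the ratio was −0.17, −0.26, −0.62 and −0.69 over the same stages.

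For GRMZM2G010596 over GRMZM2G011079 the ratio was 3.37, 3.17, 2.95 and 2.50 in embryo from 10 to 25 DAP, and the lowest embryo array, at 2.43, was above every other array. Endosperm 10 DAP stood next at 1.47 ± 0.08, whereas the later endosperm stages were at −1.79 ± 0.88, −2.66 ± 0.22 and −1.61 ± 0.27 (SD, n = 3 each). The endosperm thus changed sides between 10 and 15 DAP, by more than the spread between replicates. The summed embryo markers were also higher in endosperm 10 DAP, at 8241, 8669 and 9612, than at 15 DAP, at 3319, 2906 and 7548, where the arrays had the same order as for GRMZM2G010596. In endosperm 20 DAP that sum was 2557, 8331 and 5909, where GRMZM2G010596 read 121 to 147. In endosperm 25 DAP it was highest of these stages, at 22002 to 24683, where the gene read only 275 to 331. In embryo 10 DAP the sum was 28007 to 31852. The part of embryo RNA in the endosperm 10 DAP values was not tested. Root arrays ran from −2.34 to 0.01.

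For GRMZM2G022269 over GRMZM2G022248 leaf was at −3.92 ± 0.24 and silk, the next lowest, at −1.26 ± 0.75 (SD, n = 3 each). The lowest array outside leaf was at −1.88, above the highest leaf array at −3.76. Embryo arrays lay at 0.29 to 0.98 and endosperm arrays at −1.38 to 0.06, without overlap. Embryo and endosperm therefore differed in this pair as well, in the same direction as in the second pair, but by less than leaf.

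**Figure D4:**
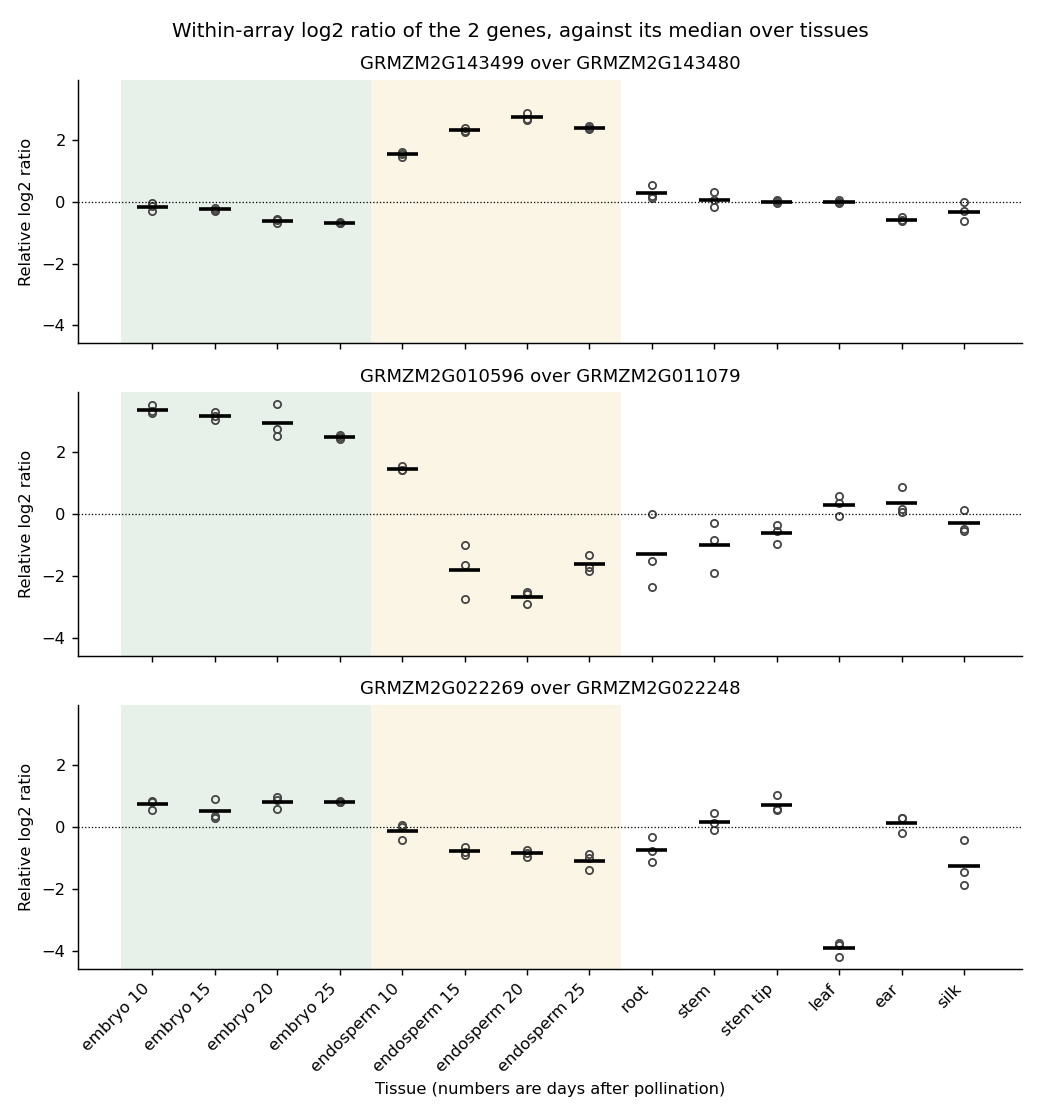
Log2 ratio of the 2 genes on the same array, against its median over the 14 tissues (dotted line at 0); circles are arrays and bars are means of 3. The first ratio is high only in endosperm (yellow), the second is high in embryo (green) and endosperm 10 DAP, and the third is lowest in leaf, at −3.92.

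Fold changes were taken from 1 limma fit over all 42 arrays, and a probe set was called when it passed both a Benjamini-Hochberg adjusted p of 0.05 and a fold of 2. Between embryo and endosperm, each as the mean of its 4 stages, 31.5% of 17621 probe sets were called and 3 of the 6 genes. The log2 difference, embryo minus endosperm, was −1.10 ± 0.05 (SE) for GRMZM2G143499, 1.57 ± 0.04 for GRMZM2G143480 and 3.40 ± 0.21 for GRMZM2G010596. GRMZM2G011079 and GRMZM2G022248 were at −0.75 ± 0.10 and −0.80 ± 0.09, and GRMZM2G022269 at 0.63 ± 0.07, all short of the fold of 2. The choice of the pairs used these tissues, and nothing is read from the count. Over the 74 pairs, both genes were called in opposite directions in 3, 1 of them GRMZM2G143499 and GRMZM2G143480, and in the same direction in 2.

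The median log2 fold of all probe sets in this comparison was −0.12, and 53.0% of the calls were higher in embryo. After centring on array medians these were −0.30 and 41.1%, and after centring on the hybridization controls 0.46 and 83.7%. Under the latter GRMZM2G143499 was at −0.51, GRMZM2G143480 at 2.16, GRMZM2G010596 at 3.98, GRMZM2G011079 at −0.16, GRMZM2G022269 at 1.21 and GRMZM2G022248 at −0.22, each with its sign kept. With signals under 100 taken as 100, GRMZM2G011079 was at −0.09 and GRMZM2G022248 at −0.47, and with quantile normalization GRMZM2G011079 was at −0.44.

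Between seed and non-seed tissues 28.3% of probe sets were called and 1 of the 6 genes. This was GRMZM2G010596, higher in seed by 1.00 ± 0.16 log2 (SE), at the edge of the fold threshold and 0.92 after centring on the hybridization controls. Its SD over replicate numbers was 0.42, and with a replicate or an array left out it ran from 0.81 to 1.23. The other genes lay between −0.66 (GRMZM2G143480) and 0.33 (GRMZM2G143499). Quantile normalization moved GRMZM2G143480 from −0.66 to −0.35, GRMZM2G143499 from 0.33 to 0.64, GRMZM2G022269 from 0.24 to 0.49 and GRMZM2G011079 from −0.34 to −0.52. GRMZM2G022269 was at 0.15 on the hybridization controls, and GRMZM2G011079 turned to 0.01 with signals under 100 taken as 100.

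From 10 to 25 DAP the embryo had 20.3% of probe sets called, and none of the 6 genes reached the call. In the limma fit 4 had a p under 0.05, unadjusted and adjusted alike, but no gene reached the fold of 2. The share of all probe sets under this p alone, or without overlap between the arrays of both ages, was not counted in embryo or endosperm. Nothing is read from the 4 or from the lack of overlap. GRMZM2G010596, GRMZM2G022248, GRMZM2G022269 and GRMZM2G143499 were lower at 25 DAP without overlap between arrays, with log2 differences of −0.99 ± 0.42, −0.80 ± 0.18, −0.72 ± 0.13 and −0.50 ± 0.10 (SE). With signals under 100 taken as 100, GRMZM2G022248, whose arrays at 25 DAP were all under 100, was at −0.13. GRMZM2G011079 and GRMZM2G143480 were at −0.12 ± 0.21 and 0.02 ± 0.09, and over the 3 scalings (quantile normalization, array medians, hybridization controls) at −0.32 to −0.02 and −0.19 to 0.11. The share of calls that were higher at 25 DAP was 62.0%, and 46.2% after centring on array medians, where the median fold of all probe sets moved from −0.01 to −0.21.

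Over the same ages the endosperm had 17.4% of probe sets called and 3 of the 6 genes. GRMZM2G010596 and GRMZM2G022269 were lower at 25 DAP, with log2 differences of −1.87 ± 0.42 and −1.20 ± 0.13 (SE), and GRMZM2G011079 was higher, at 1.21 ± 0.21. For the last gene the younger arrays were all under 100, and with signals under 100 taken as 100 its fold was 0.21 log2. GRMZM2G143499 was higher (0.47 ± 0.10) and GRMZM2G143480 lower (−0.39 ± 0.09) without overlap between arrays, and GRMZM2G022248 was at −0.24 ± 0.18. Calls higher at 25 DAP were 70.6% of all, but 49.5% with quantile normalization, 49.1% after centring on array medians and 27.1% after centring on the hybridization controls, and the median fold moved from 0.21 to −0.03, −0.04 and −0.31. Over these 3 scalings GRMZM2G143499 ran from −0.05 on the hybridization controls to 0.32, and GRMZM2G011079 from 0.70 to 0.96. GRMZM2G143480 ran from −0.91 to −0.64, GRMZM2G022248 from −0.75 to −0.48, GRMZM2G022269 from −1.72 to −1.41 and GRMZM2G010596 from −2.38 to −2.12, so that these 4 genes were lower still than on the deposited scale.

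A measure that the choice of the pairs did not use is the deviation of each array from the mean of its own tissue, which holds no difference between tissues. If an array read 1 gene higher than its replicates, the question was whether it read the neighbour lower. The r of the deviations over 42 arrays was 0.23 for GRMZM2G143499 and GRMZM2G143480 (two-sided permutation p = 0.664, adjusted over 74 pairs 0.791), 0.30 for GRMZM2G010596 and GRMZM2G011079 (p = 0.589, adjusted 0.749) and −0.30 for GRMZM2G022269 and GRMZM2G022248 (p = 0.317, adjusted 0.536). The Spearman values were −0.14, −0.10 and −0.14, with adjusted p of 0.692, 0.746 and 0.664. Of the 74 pairs 13.5% passed an adjusted p of 0.05, 8 with a positive and 2 with a negative r, and none of the 3 pairs with opposite tissue profiles was among them or among the 19 with an unadjusted p under 0.05. An inverse relation between replicates was thus not detected for any of them.

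These values rested on few arrays. Without root replicate 1, stem replicate 2 and ear replicate 3, r was −0.33, −0.32 and −0.27 (adjusted permutation p = 0.603, 0.328 and 0.772). These 3 arrays, named as standing apart, had the lowest mean correlation to their replicates within their tissue, at 0.930, 0.964 and 0.973. Root replicates 2 and 3, at 0.957 and 0.958, were kept. In the first pair the 2 arrays farthest from the median on the first gene were ear replicate 3 and stem replicate 2. Without the 2 farthest arrays r was −0.11, −0.11 and −0.12. Over the 24 seed arrays it was −0.32, −0.24 and 0.14, and over the 18 non-seed arrays 0.30, 0.55 and −0.48. The deviations of the genes had opposite signs on 23, 27 and 21 of the 42 arrays.

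**Figure D5:**
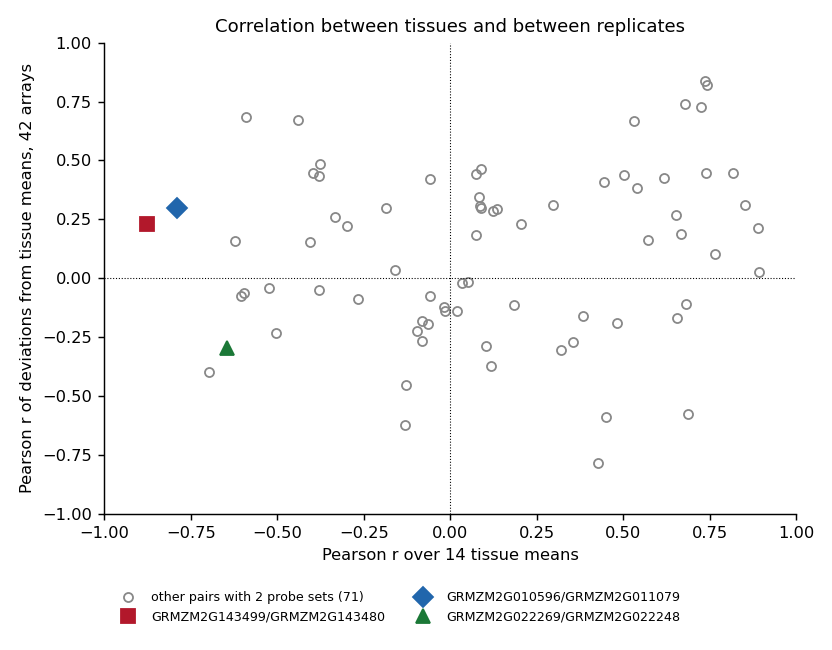
Pearson r over 14 tissue means (x axis) and of deviations from tissue means over 42 arrays (y axis), 1 point for each of the 74 pairs. The 3 pairs with opposite tissue profiles lie at the left by choice, at 0.23, 0.30 and −0.30 on the y axis, within the range of the other pairs.

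The probe sets most like each gene were looked up by r of log2 tissue means over the 14 tissues, among 16149 probe sets with a highest tissue mean of at least 100. GRMZM2G143480 was most like the probe set of bx6, a dioxygenase gene of benzoxazinoid synthesis in maize, at 0.98, and 200 probe sets reached 0.9. The bx6 probe set had its highest mean in stem tip and, like GRMZM2G143480, its lowest in endosperm 20 DAP. For GRMZM2G011079 the named match was GRMZM2G075794, at 0.93, which also has its highest mean in endosperm 25 DAP, and 4 probe sets reached 0.9.

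The closest probe sets of the other genes carry no gene name in the tables used here. They reached 0.96 for GRMZM2G143499, 0.94 for GRMZM2G010596, 0.98 for GRMZM2G022269 and 0.97 for GRMZM2G022248. As many as 138, 16, 135 and 45 probe sets were at 0.9 or above. The closest to GRMZM2G143499 had its lowest mean in embryo 25 DAP as that gene did, and the closest to GRMZM2G022248 its highest mean in leaf. Among the maize probe sets, the range over tissues of GRMZM2G143499 exceeded that of 24.3% and the range of GRMZM2G022248 that of 72.5%.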

How the data were processed

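The authors hybridised labelled total RNA of each sample to 1 Affymetrix maize array and deposited MAS5 signals, a linear intensity for each of 17734 probe sets. The MAS5 version and scaling target are not given in the sources used here. Here log2 of the signal was used as deposited, with no rescaling of arrays. The 113 control probe sets were left out of tests. Probe sets of pairs came from the study's microarray worksheet, which names both for 74 of 1628 pairs. Limma 3.58.1 in R 4.3.3 fitted tissue means over 42 arrays (eBayes with trend). Deviations were permuted 100000 times within tissues (Python 3.11.15; scipy 1.17.1, numpy 2.4.6 and pandas 2.3.3) and adjusted over 74 pairs. Both steps were tested on simulated data. The genes named are the 6 members, the pairs next in order of r and the 3 probe sets most like each member, of which those with a gene name are printed. The members and lists were chosen with earlier results of these data known. RefSeq names and neighbours come from assembly Zm-B73-REFERENCE-NAM-5.0. Family lists and promoter motifs were not run. Arrays carry no read depth, and the 3 replicates a tissue limit the precision.

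Where they apply, results were run again with quantile normalization, arrays centred on their medians or on the hybridization controls, log2 of signal + 32, signals under 100 taken as 100, a filter at 100 in at least 3 arrays, linear signal, eBayes without a trend, a replicate block, and arrays left out.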

Additional observations from a re-analysis of the deposited data

Results flagged for a closer look

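GRMZM2G143499 was marked because its change from 10 to 25 DAP ran opposite ways in the seed tissues. In embryo the 3 arrays at 25 DAP lay below the 3 at 10 DAP (means 1485 and 2109), and in endosperm they lay above (4102 and 2972). The log2 change in embryo minus that in endosperm was −0.97. This difference was not tested. After centring on the hybridization controls the change in endosperm was −0.05, so that its direction depends on the scaling.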

How the results depend on the processing

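The 3 correlations over tissue means stayed below 0 under every alternative run, but their size depended on the processing. With a replicate or an array left out, 45, 45 and 44 of 45 values lay within the spread between replicates. Of the 7 other alternatives for each pair, only 3, 5 and 3 did. GRMZM2G143499 with GRMZM2G143480 moved to −0.82 with quantile normalization, −0.83 on array medians, −0.34 on hybridization controls and −0.84 without the 3 arrays that stand apart. GRMZM2G010596 with GRMZM2G011079 moved to −0.36 on hybridization controls and −0.49 with signals under 100 taken as 100. GRMZM2G022269 with GRMZM2G022248 moved to −0.54 with quantile normalization, −0.51 on array medians, −0.33 on hybridization controls and −0.50 on linear signal. With a replicate or an array left out, the ranges were −0.89 to −0.85, −0.80 to −0.74 and −0.66 to −0.60. The r of deviations changed sign without the 3 arrays that stand apart, to −0.33 in the first pair and −0.32 in the second. Without a replicate number it ran from 0.08 to 0.29, from −0.47 to 0.70 and from −0.72 to 0.057. The −0.47 of the second pair, without replicate 1, had a permutation p of 0.00612 (adjusted 0.0906). With a replicate number left out 0 of the 74 pairs passed an adjusted p of 0.05 on r, although 7 to 12 had an unadjusted p under 0.05, so these settings say nothing about stability. The cause of these changes was not tested. Counts of called probe sets stayed within 1.5 times. Same-numbered arrays of different tissues had a median r of 0.01, and 44 of 273 exceeded 0.1. For differently numbered arrays the median was −0.003, and 65 of 546 exceeded 0.1. Whether the replicate numbers pair the arrays was not tested. With a replicate block 5552, 4991, 3574 and 3072 probe sets were called, against 5552, 4991, 3577 and 3070, and the r of deviations was 0.23, 0.31 and −0.23. Signals under 100 limit GRMZM2G011079, at 100 on 7 of 42 arrays, and GRMZM2G022248 in embryo, at 100 on 5 of 12.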
